A study of Mus musculus with 6 samples.

Results

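The imprinted cluster that runs from Dlk1 to Mirg on mouse chromosome 12 was described here gene by gene in atrioventricular canal regions that lack the transcription factor Scleraxis. Its members are the genes that start in a window of 400 kb of chromosome 12 in the mm9 build, a rule of position that uses no measured value, and those measured start at positions 110691033 (Dlk1) to 110981925 (Mir410). The mm9 annotation holds 85 such genes, and 55 of them were among the 18810 genes of the expression table, while the other 30 were not analysed here. The 55 members are 2 protein-coding genes (Dlk1 and Rtl1), 4 long noncoding RNA genes (Meg3, Gm17639, Rian and Mirg), 28 of 56 annotated miRNA genes and 21 of 23 annotated snoRNA genes. RNA was sequenced from the atrioventricular canal regions, which hold the mitral, tricuspid and aortic valves, of 3 Scx-/- and 3 Scx+/+ littermate C57BL/6 embryos at embryonic day 15.5. The Scx-/- embryos are null for Scx, and the Scx+/+ embryos are wild type, with no other allele or treatment named. Each library is 1 embryo, with n = 3 per genotype throughout.

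Genes of this cluster are expressed from 1 parental chromosome. Dlk1, which encodes a membrane-bound inhibitor of differentiation, and Rtl1, which derives from a retrotransposon and is needed in the placenta, are known to be active on the paternal copy. Meg3, Rian and Mirg are long RNAs of the maternal copy, Rian is the host of the SNORD113 family of box C/D snoRNAs, and Mirg and the interval before it carry one of the largest miRNA clusters of the mouse genome. The miRNAs opposite to Rtl1 are made from the maternal strand and are known to direct cleavage of the Rtl1 transcript.

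Of the 28 miRNA members, 5 passed the threshold in the comparison of genotypes, and their sequences are shown first. The values below belong to the hairpin genes and not to the mature miRNAs. Sequences of 22 of the 28 miRNA members were matched by symbol in RefSeq (GRCm38.p6), with 39 mature miRNAs among them, each of which was found unbroken in the mm9 sequence of its gene. The mature miRNAs of the 5 called genes, and miR-1197-5p, are given 5′ to 3′ with the seed, bases 2 to 8, in capitals.
mmu-miR-758-5p: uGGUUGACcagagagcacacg
mmu-miR-758-3p: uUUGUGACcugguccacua
mmu-miR-134-5p: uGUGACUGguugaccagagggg
mmu-miR-134-3p: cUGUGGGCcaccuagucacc
mmu-miR-1193-5p: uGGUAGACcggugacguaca
mmu-miR-1193-3p: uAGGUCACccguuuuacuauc
mmu-miR-432: uCUUGGAGuagaucagugggcag
mmu-miR-539-5p: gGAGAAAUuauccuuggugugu
mmu-miR-1197-5p: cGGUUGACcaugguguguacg
The 39 mature miRNAs have 38 different seeds, and the one seed that is shared is GGUUGAC, in miR-758-5p and miR-1197-5p. No other mature mouse miRNA of the RefSeq table has that seed. The seed of miR-1193-5p is also that of miR-379-5p, a miRNA of the same cluster that was not analysed here.

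A longer stretch is common to miR-758-5p and miR-134-5p, both made from genes that were called higher in Scx-/-, and it is shown in capitals.
mmu-miR-758-5p: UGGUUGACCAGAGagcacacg
mmu-miR-134-5p: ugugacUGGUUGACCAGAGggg
The stretch is 13 bases long and takes bases 1 to 13 of miR-758-5p and bases 7 to 19 of miR-134-5p, so their seeds differ. It was the longest found in the 741 pairs of mature miRNAs of the cluster, for which the median was 4 bases.

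The annotated genes that collected the reads are longer than the mature miRNAs. They are given here in the mm9 build, all on the plus strand, as RNA with the mature miRNAs in capitals, and each equals the RefSeq hairpin letter by letter.
Mir758, chr12:110951020-110951100: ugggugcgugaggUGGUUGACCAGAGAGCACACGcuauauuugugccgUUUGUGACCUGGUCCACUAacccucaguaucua
Mir134, chr12:110972349-110972419: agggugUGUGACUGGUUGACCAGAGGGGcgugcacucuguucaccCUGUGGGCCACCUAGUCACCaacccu
Mir1193, chr12:110953881-110954001: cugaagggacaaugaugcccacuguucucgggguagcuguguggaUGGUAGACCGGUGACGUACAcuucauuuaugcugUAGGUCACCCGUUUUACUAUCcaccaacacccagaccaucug
Mir432, chr12:110833166-110833240: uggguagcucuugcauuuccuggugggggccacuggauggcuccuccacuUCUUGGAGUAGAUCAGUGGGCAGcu
Mir539, chr12:110966339-110966412: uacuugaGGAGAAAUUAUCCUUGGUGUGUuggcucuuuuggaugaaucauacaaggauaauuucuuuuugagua
In the annotation, Mir432 lies opposite to an exon of Rtl1, and the other 4 genes lie between the ends of Rian and Mirg, in no long gene. A value of such a gene counts the reads over the hairpin interval, and mature miRNAs were not measured apart from it.

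Libraries held 46429972 to 68571005 reads, as recovered from the table, and levels are in RPKM, which divides reads by exon length and by the depth of the library. Values that the authors had set to a common fill-in value of 0.0949 RPKM stand for 0 reads in genes this short, and 40.3% of the members' values were at it, against 7.44% over all genes. Scx+/+ replicate 2 stood apart, with 2252 genes at the fill-in value against 1088 to 1465 in the other 5 libraries, and with 56.9% of its RPKM sum in 10 genes against 30.7% to 43.9%. Scx itself had 33.6, 18.6 and 82.9 RPKM in Scx-/- replicates 1 to 3 and 29.5, 58.3 and 26.0 RPKM in Scx+/+ replicates 1 to 3. That value sums both exons of the gene and checks no genotype, so the libraries are named by their labels. By Xist and Y-linked genes, replicate 2 of each genotype was female and the other 4 libraries were male. All 9 markers of valve mesenchyme were measured, with a summed level of 437 to 575 RPKM in Scx-/- and 409 to 457 RPKM in Scx+/+ libraries, and so were all 9 of cardiomyocytes, at 18336 to 26639 and 16228 to 29165 RPKM.

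In the comparison of genotypes, 7 of the 55 members were called at an unadjusted p below 0.05, the threshold of the study, by limma on log2(RPKM + 0.1). Mir758, Mir134, Mir1193 and Mirg were called higher in Scx-/-, and Mir432, Gm17639 and Mir539 lower. Over all 18810 genes, 731 or 3.89% were called, of which 2.82% of all genes were higher in Scx-/- and 1.06% lower. The share of members called was 12.7%, while miRNA genes outside the cluster were called at 8.06% (29 of 360) and snoRNA genes outside it at 13.3% (57 of 428). The study used one-way analysis of variance, without naming its scale. On RPKM, that test called 1 of 55 members (1.82%), against 848 of all genes (4.51%). On log2(RPKM + 0.1) it called 4 members (7.27%), against 865 of all genes (4.60%). These 4 were Mir758, Mir134, Mir432 and Gm17639, all in the study's own list. Within the cluster, 5 of 28 miRNA genes (17.9%), 0 of 21 snoRNA genes and 2 of 6 long genes were called by limma. No member, and 0 of all 18810 genes (0.0%), had an adjusted p below 0.05, and the smallest adjusted p among the members, that of Mir758, was 0.446 by limma with Benjamini-Hochberg adjustment. The genotypes did not overlap for 5 of 55 members (9.09%), near the 9.50% of all genes. The median log2 fold change was 0.20 for the members and 0.10 for all genes, with 33 members above 0 and 22 below. The median of the members was -0.11 without Scx+/+ replicate 2 and -0.074 without Scx-/- replicate 2.

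**Figure D1:**
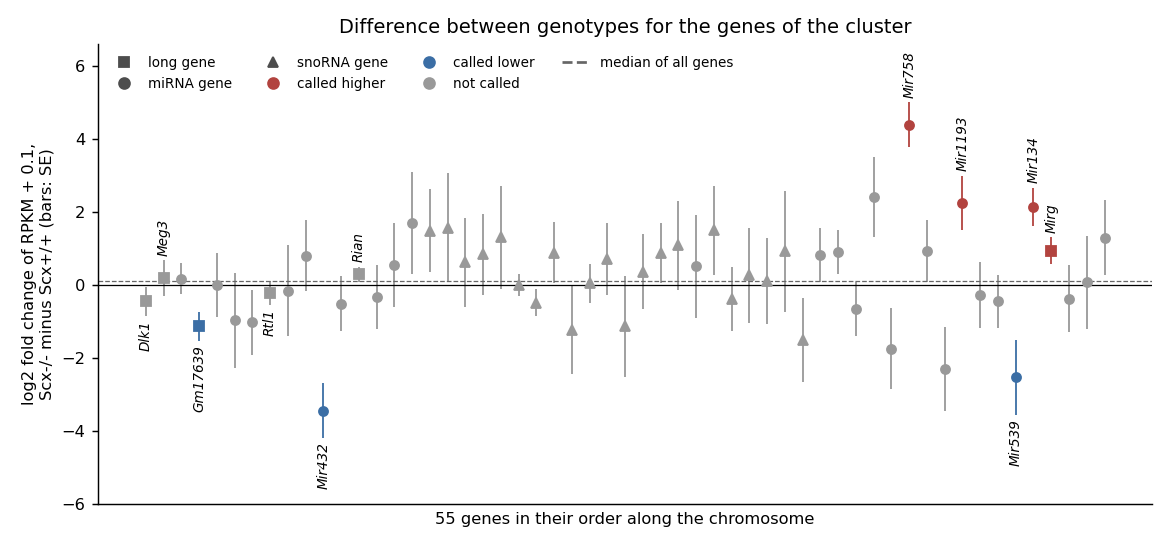
Log2 fold change of RPKM + 0.1, Scx-/- minus Scx+/+, with its standard error, for the 55 members in their order along the chromosome, where squares are long genes, circles miRNA genes and triangles snoRNA genes. The 4 members called higher are in red, the 3 called lower in blue, and the dashed line is the median of all genes at 0.10.

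Mir758 was the member with the largest difference. It had 49, 13 and 11 reads in Scx-/- replicates 1 to 3 and 0 reads in each of the 3 Scx+/+ libraries. Set against a floor of 3 reads over the Scx+/+ group, it was 23.8-fold higher in Scx-/- after scaling to depth, which is taken as a bound. Scx-/- replicate 1 holds 49 of the 73 reads, and without it the bound was 11.0-fold. The limma p was 5.9e-05 before adjustment. Mir758 was not called by analysis of variance on RPKM, but it was called by analysis of variance on log2(RPKM + 0.1) (unadjusted p = 0.0043). Mir134, whose mature form is best known from neuronal dendrites, had 4, 4 and 2 reads in Scx-/- and 0 in every Scx+/+ library. Its bound against that floor was 3.26-fold higher in Scx-/- (adjusted p = 0.967 by limma). These 2 genes were without a read in the 3 Scx+/+ libraries and with one in the 3 Scx-/- libraries, but Mir134 rests on 10 reads in all. Such a bound takes the reads of the higher group as exact, so it is no guaranteed minimum. Members that were not called had bounds of this size too. They were 9.89-fold for Mir323 and 6.14-fold for SNORD113 ENSMUSG00000088820, higher in Scx+/+, and 4.89-fold for Mir410, higher in Scx-/-. The reads of Mir410 and of that snoRNA gene were all in 1 library each.

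Mir1193 had 13, 19 and 3 reads in Scx-/- and 4, 0 and 0 in Scx+/+ (log2 fold change 2.26 ± 0.74 SE, adjusted p = 0.967 by limma). The genotypes overlapped, since Scx-/- replicate 3 was below Scx+/+ replicate 1. The call was lost without Scx-/- replicate 1, Scx-/- replicate 2, Scx+/+ replicate 2 or Scx+/+ replicate 3 (1.85 to 2.98 with each library left out). Mir1197, which shares its seed with miR-758-5p and lies just before it, had 19, 34 and 13 reads in Scx-/- and 0, 0 and 37 in Scx+/+, and was not called (adjusted p = 0.967 by limma). Its unadjusted limma p was 0.055. Without Scx+/+ replicate 3 its log2 fold change went from 2.40 to 3.92 and it was called, higher in Scx-/-. Between those neighbours lies Mir323, with 0 reads in the Scx-/- libraries and 1, 0 and 28 in Scx+/+. Summed over each genotype, reads in Scx-/- and Scx+/+ were 66 and 37 for Mir1197, 0 and 29 for Mir323 and 73 and 0 for Mir758, so that close neighbours differed in which genotype had more.

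Mir432 was the member with the largest difference in the other direction. It had 5, 4 and 0 reads in Scx-/- and 15, 21 and 74 in Scx+/+, and the genotypes did not overlap. Its log2 fold change was -3.44 ± 0.75 SE (adjusted p = 0.967 by limma). The limma p was 0.0014 before adjustment. The log2 fold change was -4.01 without Scx-/- replicate 1 and -2.60 without Scx-/- replicate 3. Mir432 was not called by analysis of variance on RPKM, but it was called by analysis of variance on log2(RPKM + 0.1) (unadjusted p = 0.030). Mir539 had 0 reads in the Scx-/- libraries and 6, 0 and 25 in Scx+/+. Its bound against the floor was 10.6-fold higher in Scx+/+, although Scx+/+ replicate 2 had no read (adjusted p = 0.967 by limma). Scx+/+ replicate 3 holds 25 of the 31 reads, and without it the bound was 3.36-fold and the log2 fold change went from -2.53 to -1.45. It was called without Scx+/+ replicate 2 and in no other fit that left out a library. Mir758, Mir134, Mir432 and Gm17639 are also in the study's own list of changed noncoding genes, which was chosen on these libraries and is no independent evidence of their direction.

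**Figure D2:**
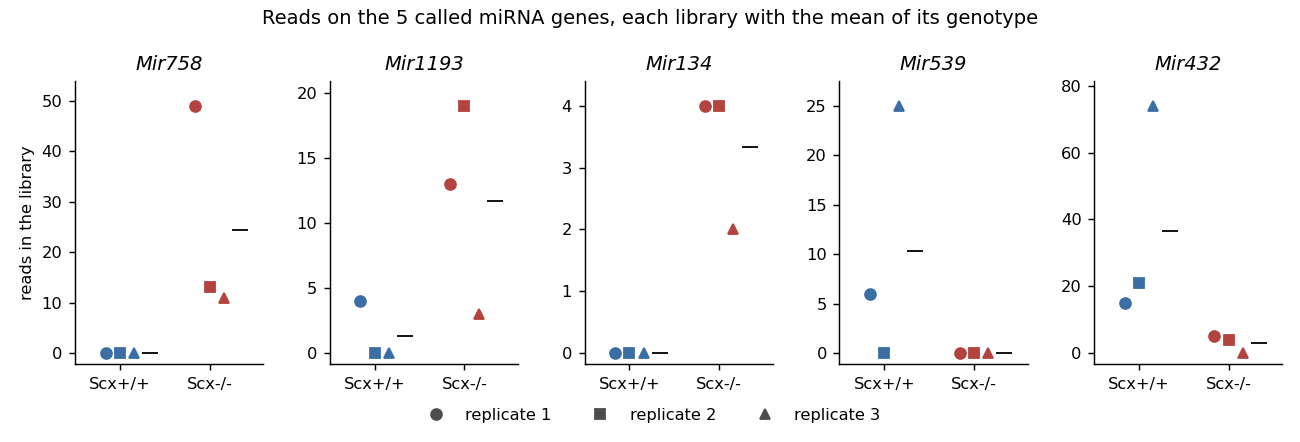
Reads on the 5 called miRNA genes in each library, with circles, squares and triangles for replicates 1, 2 and 3 and a bar for the mean of each genotype. Mir758 and Mir134 have 0 reads in every Scx+/+ library and Mir539 has 0 in every Scx-/- library, while Mir432 has 15 to 74 reads in Scx+/+ and 0 to 5 in Scx-/-.

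The other miRNA members were sparse. Of the 28, 26 had a library without reads, 25 had under 50 reads in every library and 11 had under 10. The methods of the study name a minimum of about 50 reads per gene in one of the libraries, which 39 of the 55 members did not reach by the recovered reads. The 2 miRNA genes with reads in every library were Mir1906-1, inside an exon of Meg3, and AC121784.4, which had 13, 8 and 9 reads in Scx-/- and 3, 11 and 3 in Scx+/+. Without Scx+/+ replicate 2, AC121784.4 was called, higher in Scx-/-. Mir1906-1 had 39, 36 and 28 reads in Scx-/- and 41, 11 and 55 in Scx+/+, which is 1.77% to 2.65% of the reads of Meg3 in the same library. Its level per length was 4.01 to 5.98 times that of Meg3. Reads of Mir1906-1 and of the Meg3 exon that holds it, on the same strand, cannot be told apart. The mature sequence of Mir1906-1 is also that of Mir1906-2 on the X chromosome.

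Opposite to Rtl1, miRNA reads were few and uneven. Mir433 had 0, 55 and 6 reads in Scx-/- and 33, 4 and 3 in Scx+/+. Mir127 had 0, 4 and 13 reads in Scx-/- and 1, 0 and 7 in Scx+/+, and Mir136 had 5 reads in all 6 libraries together. Of these 4 neighbours, Mir432 alone had genotypes that did not overlap. The strand of the reads is not given in the sources used here, so reads of these miRNA genes and of Rtl1 cannot be told apart.

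Rtl1 had 2.01, 3.46 and 1.63 RPKM in Scx-/- and 2.86, 2.23 and 2.88 RPKM in Scx+/+ libraries, with means of 2.37 ± 0.968 and 2.65 ± 0.371 RPKM (SD, n = 3). The genotypes overlapped, with the highest and the lowest value both in Scx-/-. The log2 fold change was -0.22 ± 0.33 SE (adjusted p = 0.971 by limma).

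By mean level, Dlk1 was the lowest of the long genes, at 0.865, 0.628 and 0.725 RPKM in Scx-/- and 0.739, 1.49 and 0.985 RPKM in Scx+/+. Its means were 0.739 ± 0.119 and 1.07 ± 0.384 RPKM (SD, n = 3), and it was not called (log2 fold change -0.44 ± 0.39 SE, adjusted p = 0.967 by limma). Its highest value was in Scx+/+ replicate 2, where it stood above Gm17639, Mirg and Meg3.

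Meg3, a nuclear long RNA that is known to bind Polycomb repressive complex 2, had 1.61, 1.68 and 0.979 RPKM in Scx-/- and 1.69, 0.536 and 1.81 RPKM in Scx+/+. The means were 1.42 ± 0.385 and 1.35 ± 0.706 RPKM (SD, n = 3), with a log2 fold change of 0.20 ± 0.48 SE (adjusted p = 0.984 by limma). The spread within each genotype was larger than the difference between them. Without Scx+/+ replicate 2 the log2 fold change of Meg3 was -0.32. Meg3 was lowest in Scx+/+ replicate 2 and Scx-/- replicate 3, the libraries with the highest summed cardiomyocyte markers (29165 and 26639 RPKM), and highest in Scx+/+ replicate 3, with the lowest sum (16228 RPKM), and the part of these cells in the level of Meg3 was not tested. In RNA of a whole tissue, fewer cells of a type and less RNA per cell cannot be told apart.

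Gm17639 lies on the strand opposite to Meg3, at chr12:110806838-110809933, where it overlaps an exon of Meg3. It had 1.07, 0.717 and 0.927 RPKM in Scx-/- and 2.31, 1.26 and 3.05 RPKM in Scx+/+, or 0.906 ± 0.179 and 2.21 ± 0.899 RPKM (SD, n = 3). All 3 Scx-/- libraries were below all 3 Scx+/+ libraries, and the log2 fold change was -1.13 ± 0.39 SE (adjusted p = 0.967 by limma). The limma p was 0.018 before adjustment. It was not called without Scx-/- replicate 2, Scx-/- replicate 3, Scx+/+ replicate 1 or Scx+/+ replicate 3 (log2 fold change -1.47 to -0.86 with each library left out). Reads of Gm17639 and of Meg3 cannot be told apart without strand. Within a library, the ratio of Gm17639 to Meg3 was 0.667, 0.428 and 0.947 in Scx-/- and 1.36, 2.36 and 1.68 in Scx+/+, so the genotypes did not overlap on that scale either.

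Rian was by far the most abundant of the long genes per length. It had 19.6, 27.2 and 19.2 RPKM in Scx-/- and 19.7, 14.1 and 20.0 RPKM in Scx+/+ libraries, with means of 22.0 ± 4.51 and 17.9 ± 3.30 RPKM (SD, n = 3). 4 of the libraries were within 1 RPKM of each other, and replicate 2 of each genotype was the highest of one group and the lowest of the other. The log2 fold change was 0.29 ± 0.21 SE (adjusted p = 0.967 by limma).

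Mirg was the one long gene called higher in Scx-/-. It had 2.91, 3.42 and 2.27 RPKM in Scx-/- and 2.25, 0.895 and 1.41 RPKM in Scx+/+, with means of 2.87 ± 0.579 and 1.52 ± 0.681 RPKM (SD, n = 3). The genotypes did not overlap, but Scx-/- replicate 3 and Scx+/+ replicate 1 were almost equal. The log2 fold change was 0.94 ± 0.37 SE (adjusted p = 0.967 by limma). The limma p was 0.030 before adjustment. Without Scx+/+ replicate 2 it was 0.64 and was not called (unadjusted p = 0.0895). It was not called without Scx-/- replicate 1, Scx-/- replicate 2 or Scx+/+ replicate 3 either.

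**Figure D3:**
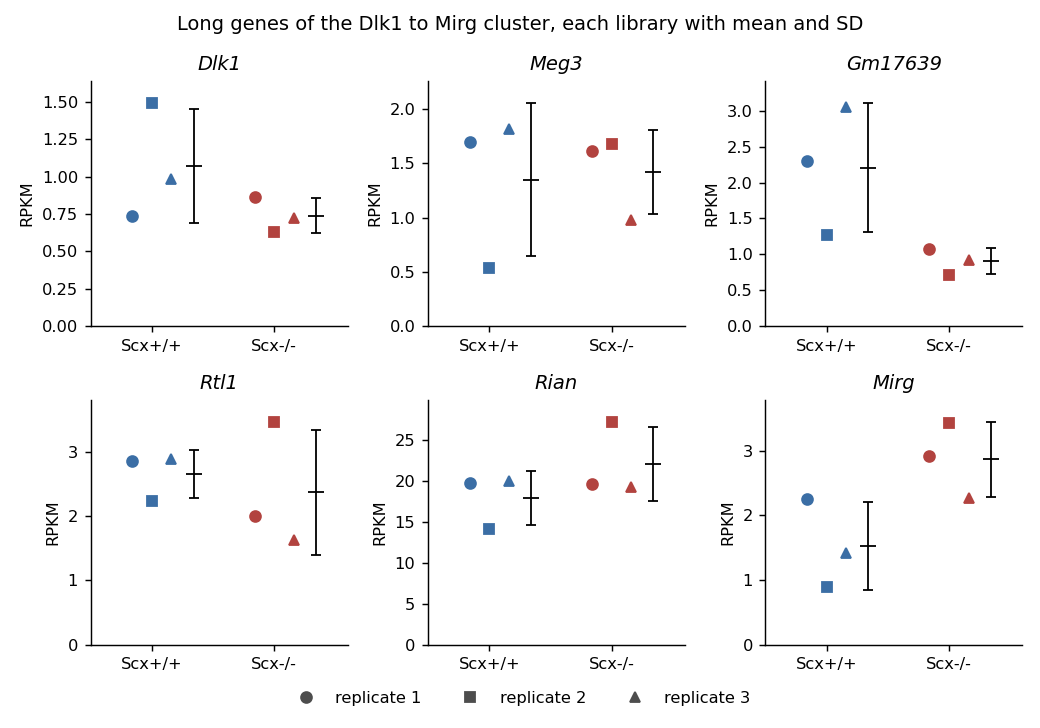
RPKM of the 6 long genes of the cluster in each library, from 0, with the mean and SD of each genotype and circles, squares and triangles for replicates 1, 2 and 3. Gm17639 and Mirg are the genes whose genotypes do not overlap, and Rian, at 14.1 to 27.2 RPKM, stands above the other 5 genes in every library.

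In order of their mean over the 6 libraries, the long genes were Rian at 20.0 RPKM, Rtl1 at 2.51, Mirg at 2.19, Gm17639 at 1.56, Meg3 at 1.38 and Dlk1 at 0.906 RPKM. The lowest library of Rian, at 14.1 RPKM, was above the highest of Rtl1, at 3.46 RPKM. Each other pair of neighbours in that order overlapped over the libraries.

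Ratios within a library do not depend on how the library was scaled. The ratio of Mirg to Meg3 was 1.81, 2.04 and 2.32 in Scx-/- and 1.33, 1.67 and 0.780 in Scx+/+, a 1.70-fold difference of geometric means. That of Mirg to Rian was 0.149, 0.126 and 0.118 in Scx-/- and 0.114, 0.0634 and 0.0708 in Scx+/+, a 1.63-fold difference. Both ratios, and that of Gm17639 to Meg3, did not overlap between the genotypes, and each had an exact two-sided permutation p of 0.1, the smallest that 3 against 3 libraries allow (0.3 adjusted over 9 ratios). The ratio of Rian to Meg3 did overlap, at 12.1, 16.2 and 19.6 in Scx-/- and 11.6, 26.3 and 11.0 in Scx+/+ (exact permutation p = 0.8).

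**Figure D4:**
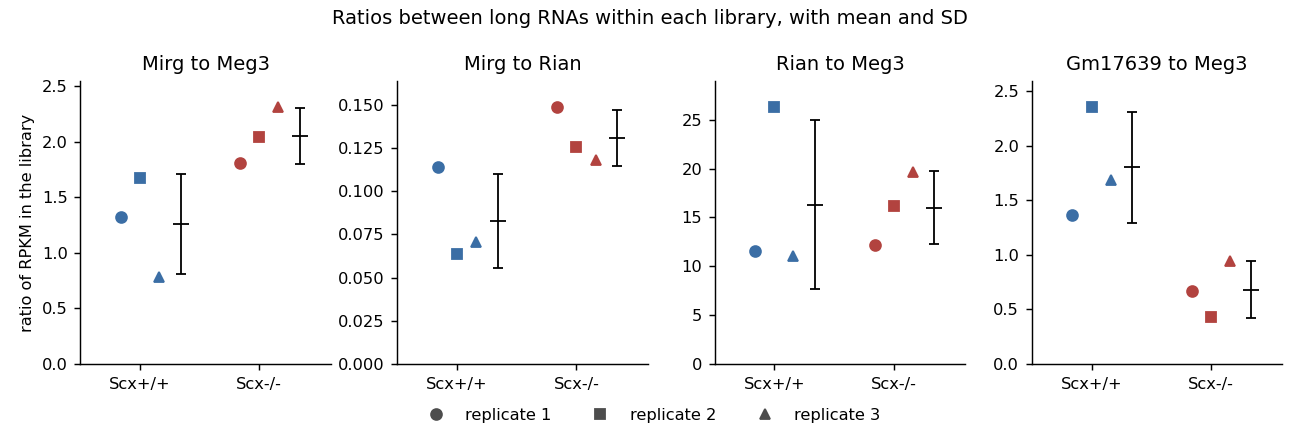
Ratios of RPKM between long RNAs of the cluster in each library, from 0, with the mean and SD of each genotype and circles, squares and triangles for replicates 1, 2 and 3. Mirg relative to Meg3 and to Rian is higher in the 3 Scx-/- libraries, Gm17639 relative to Meg3 is lower in them, and Rian relative to Meg3 overlaps.

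The RNAs of the maternal copy were positively correlated over the 6 libraries, but not once the 2 libraries farthest from the median were left out. Pearson's r was 0.77 between Meg3 and Rian, 0.84 between Rian and Mirg and 0.67 between Meg3 and Mirg, and Spearman's rho was 0.83, 0.49 and 0.086. Their exact permutation p-values were 0.081, 0.058 and 0.16 for r and 0.058, 0.36 and 0.92 for rho. Dlk1 went the other way, with r = -0.91 and rho = -0.83 against Mirg (exact permutation p = 0.0125 and 0.058, adjusted over 6 pairs 0.075 and 0.175), r = -0.87 and rho = -0.49 against Rian (exact permutation p = 0.060 and 0.36), and r = -0.69 and rho = -0.14 against Meg3 (exact permutation p = 0.125 and 0.80). No pair passed after adjustment. Centred within each genotype, r was 0.82 for Meg3 and Rian, 0.78 for Rian and Mirg and 0.85 for Meg3 and Mirg. For Dlk1 it was -0.88 with Mirg, -0.81 with Rian and -0.75 with Meg3. Without the 2 libraries farthest from the median of the first gene, r of Meg3 and Rian was -0.10. That of Rian and Mirg was -0.65, of Mirg and Dlk1 -0.29, of Meg3 and Mirg -0.86, of Meg3 and Dlk1 0.45 and of Rian and Dlk1 0.79. These relations were thus weaker or turned in the remaining libraries, which are few and span a narrower range. Scx+/+ replicate 2 was among those left out in every pair.

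The SNORD113 snoRNAs are box C/D snoRNAs without a known ribosomal target, and 12 of the 21 snoRNA members lie inside Rian in the annotation. The 3 with the most reads are shown in mm9, plus strand, as DNA, with the C box (TGATGA, searched in the first 20 bases of the gene's strand) and the D box (CTGA, searched in the last 20) in capitals.
SNORD113 ENSMUSG00000084691, chr12:110884339-110884412: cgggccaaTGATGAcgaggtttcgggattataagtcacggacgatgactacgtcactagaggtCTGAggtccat
SNORD113 ENSMUSG00000084549, chr12:110887827-110887898: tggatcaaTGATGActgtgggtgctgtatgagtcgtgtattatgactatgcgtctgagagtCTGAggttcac
SNORD113 ENSMUSG00000089509, chr12:110871978-110872052: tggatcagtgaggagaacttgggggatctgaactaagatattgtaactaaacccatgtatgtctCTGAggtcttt
Both motifs were found in 13 of the 21 snoRNA members and in 17.2% of the 1529 snoRNA genes annotated elsewhere, which are longer (median 128 against 73 bases) and of more than one class. The third gene holds the D box letters only. The copies are not close to identical, with a pairwise identity of 52.3% to 84.0% and a median of 61.0% over 210 pairs.

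The snoRNA gene with the most reads, ENSMUSG00000084691, held 268, 808 and 580 reads in Scx-/- and 501, 445 and 515 in Scx+/+, or 121 ± 47.7 and 115 ± 14.1 RPKM (SD, n = 3). The genotypes overlapped fully. It lies in an exon of Rian, and its level per length was 3.54 to 9.18 times that of Rian in the same library. ENSMUSG00000084549, in another exon of Rian, held 36, 75 and 67 reads in Scx-/- and 88, 35 and 148 in Scx+/+, at 0.489 to 1.5 times the level of Rian (log2 fold change -0.49 ± 0.37 SE, adjusted p = 0.967 by limma). Without Scx+/+ replicate 2 its log2 fold change was -0.90 and it was called, lower in Scx-/-. Reads of either gene and of the Rian exon that holds it, on the same strand, cannot be told apart.

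Within the introns of Rian, ENSMUSG00000089509 held 14, 117 and 54 reads in Scx-/- and 62, 0 and 75 in Scx+/+. ENSMUSG00000087885 held 12, 54 and 47 reads in Scx-/- and 43, 0 and 69 in Scx+/+. AF357355 held 20, 27 and 19 reads in Scx-/- and 54, 7 and 22 in Scx+/+. ENSMUSG00000065013 held 0, 62 and 11 reads in Scx-/- and 21, 11 and 25 in Scx+/+. ENSMUSG00000064452 held 4, 45 and 22 reads in Scx-/- and 17, 0 and 15 in Scx+/+. Each of these 5 genes overlapped between genotypes, and 3 of them had no read in Scx+/+ replicate 2. None of the 21 snoRNA members was called, and their median log2 fold change was 0.62, with 15 above 0 and 6 below. In Scx+/+ replicate 2, 5 of the 21 snoRNA members had a read, against 10 to 17 in the other libraries, and so had 51.9% of the snoRNA genes outside the cluster, against 65.2% to 75.0%. Without that library the median of the snoRNA members was -0.27, with 9 above 0 and 12 below, and without Scx-/- replicate 2 it was -0.13.

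**Figure D5:**
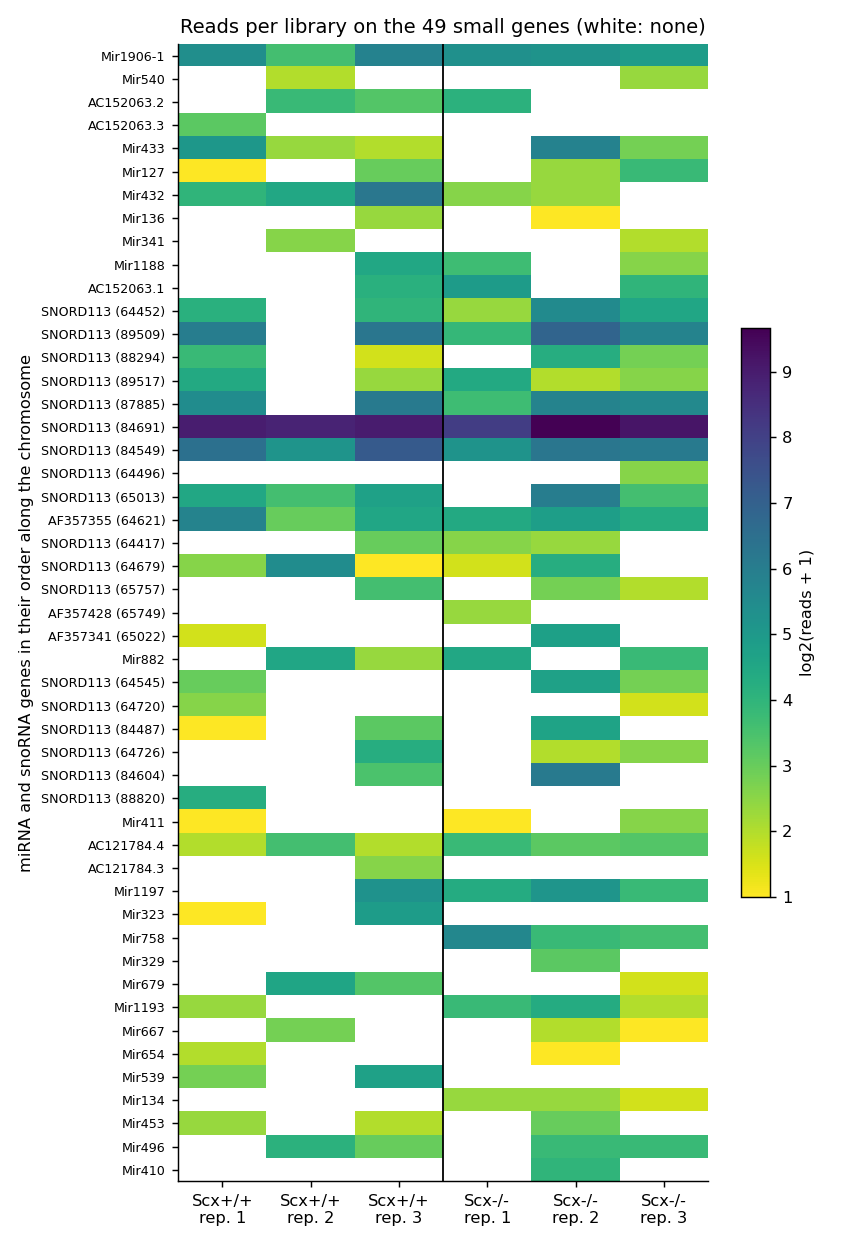
Reads, as log2(reads + 1), on the 49 miRNA and snoRNA members in their order along the chromosome, in the 3 Scx+/+ and the 3 Scx-/- libraries, with white for no read. SNORD113 ENSMUSG00000084691 is the darkest row in every library, most miRNA rows are broken by white, and Scx+/+ replicate 2 has reads on 16 of the 49 genes.

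Reads were not spread evenly over the places in which the small genes lie. The 4 small members in exons of Meg3, Rian or Mirg had 15, 210, 449 and 3117 reads over the 6 libraries (median 329.5). Of these 4, 3 had reads in every library. They lie on the strand of their host, so their reads and those of the host exon cannot be told apart. The 15 in introns of Rian or Mirg had a median of 52 reads, the 4 opposite to an exon of Rtl1 had 63 and the 26 in no long gene had 27. Of the 5 called miRNA genes, 4 were among these 26. The number of small members with a read was 22, 33 and 31 in Scx-/- and 27, 16 and 32 in Scx+/+, which overlapped.

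Genes that act on this cluster or on its RNAs are read against the 3.89% of all genes called. Of 18 measured genes of imprint establishment and maintenance, 0 were called by limma at an unadjusted p below 0.05, and the median log2 fold change was 0.08, with Atrx, a chromatin remodeller, at 22.1 to 35.1 RPKM and Dnmt1, the maintenance DNA methyltransferase, at 17.4 to 31.9 RPKM over the 6 libraries. Of 10 genes of Polycomb repressive complex 2, 0 were called, with a median of 0.15. Rbbp7, a histone-binding subunit, had 77.1 to 88.4 RPKM in Scx-/- and 63.4 to 76.8 in Scx+/+, and Eed, the subunit that reads methylated histone H3, had 18.4 to 24.4 and 13.0 to 21.5 RPKM.

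Of 18 genes of miRNA processing, 1 was called higher and 1 lower. Prkra, a partner protein of Dicer, had 10.4, 8.50 and 11.1 RPKM in Scx-/- and 8.40, 3.73 and 6.86 RPKM in Scx+/+ (log2 fold change 0.72 ± 0.30 SE, adjusted p = 0.967 by limma). Eif2c2, which encodes the Argonaute protein that cleaves miRNA targets, had 3.43, 3.31 and 2.99 RPKM in Scx-/- and 5.68, 3.84 and 7.25 RPKM in Scx+/+ (log2 fold change -0.72 ± 0.27 SE, adjusted p = 0.967 by limma). For both genes the genotypes did not overlap. The median of the list was -0.04.

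Of 10 genes for the proteins of box C/D snoRNPs, 1 was called, and the median log2 fold change was 0.29. Nop56, a core protein of these particles, had 24.1, 19.9 and 21.2 RPKM in Scx-/- and 16.6, 15.0 and 13.1 RPKM in Scx+/+ (log2 fold change 0.54 ± 0.17 SE, adjusted p = 0.967 by limma). Its partner Nop58 was at 77.9 to 97.5 RPKM in Scx-/- and 59.1 to 83.5 RPKM in Scx+/+, which overlapped. The snoRNAs of the cluster, none of which was called, are described above.

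MEF2 factors are known to bind regulatory sequence of this cluster in muscle. Of 8 measured MEF2 factors and class IIa histone deacetylases 0 were called, with a median of -0.0013, and Mef2a (39.6 to 50.8 RPKM) and Mef2c (14.9 to 20.2 RPKM) were the most abundant factors. Of 24 genes imprinted at other loci 0 were called, with a median of 0.08. Among them H19, a long RNA of the maternal copy of another imprinted locus, had 2805, 2693 and 1642 RPKM in Scx-/- and 2488, 1351 and 2041 RPKM in Scx+/+, and Igf2r, the scavenger receptor of Igf2, had 243, 223 and 112 RPKM and 279, 150 and 260 RPKM. Both were lowest, within each genotype, in Scx-/- replicate 3 and Scx+/+ replicate 2, as Meg3 was.

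Of 15 measured genes that flank the cluster 0 were called, with a median of 0.04. Hsp90aa1, a chaperone, had 221 to 247 RPKM in Scx-/- and 165 to 208 RPKM in Scx+/+, without overlap (log2 fold change 0.34 ± 0.18 SE, adjusted p = 0.967 by limma), and Ppp2r5c, a regulatory subunit of protein phosphatase 2A, had 49.4 to 67.2 and 44.9 to 55.02 RPKM.

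Of the markers of tissues in which this cluster is known to be highly expressed, a part was in the expression table. Except for Acta1 their levels were low, but so were those of Meg3 (0.536 to 1.81 RPKM), Dlk1 (0.628 to 1.49 RPKM) and Mirg (0.895 to 3.42 RPKM). The part of such tissues in the levels of the cluster was not tested. Of 6 fetal liver markers 2 were measured, Ttr and Apoa2, and each was at the fill-in value in 4 or more libraries. Of 6 adrenal and pituitary markers, Star was the one measured, at 0.0949 to 0.980 RPKM, and of 7 neuronal and glial markers 4 were, with a summed level of 2.16 to 3.66 RPKM in Scx-/- and 3.67 to 4.69 RPKM in Scx+/+. Among these, Stmn2, a neuronal tubulin regulator, was at 1.01 to 1.5 and 1.54 to 3.37 RPKM. Of 7 skeletal muscle markers 3 were measured, and Acta1, which the heart also expresses, made up nearly all of their sum at 61.4 to 83.6 RPKM.

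The other cell types of the region were measured as well. Of 7 endothelial markers 0 were called (median -0.14), with Pecam1 at 33.3 to 39.4 RPKM and Tek at 22.8 to 35.0 RPKM over the 6 libraries. Of 6 epicardial markers 1 was called, Upk1b, with 3.81 to 5.53 RPKM in Scx-/- and 2.56 to 3.63 RPKM in Scx+/+, and Tbx18 overlapped at 5.52 to 10.3 and 4.44 to 8.01 RPKM. Of 9 cardiomyocyte markers 1 was called, the calcium release channel gene Ryr2, with 31.7 to 44.2 RPKM in Scx-/- and 45.8 to 55.9 RPKM in Scx+/+, while Myl2 overlapped at 7247 to 11262 and 5910 to 11634 RPKM. Of 6 macrophage markers 1 was called, Cd68, at 0.639 to 1.54 RPKM in Scx-/- and 0.0949 to 0.476 RPKM in Scx+/+, and C1qa overlapped at 2.64 to 6.13 and 2.13 to 4.58 RPKM. Of 9 valve mesenchyme, 5 smooth muscle and 8 erythroid markers 0 were called, with Postn at 161 to 387 RPKM, Col3a1 at 100.4 to 153.5, Acta2 at 343.4 to 548.5, Tagln at 47.8 to 112, Hba-a1 at 2464 to 4241 and Hba-a2 at 2282 to 3947 RPKM. The part of these cells in the levels of the cluster was not tested.

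The genes outside the cluster whose log2(RPKM + 0.1) was most like the mean of Meg3, Rian and Mirg over the 6 libraries were Rgs7bp, Nras, Zfp945, Gas5 and Sfrs18, with Pearson's r of 0.998, 0.996, 0.995, 0.994 and 0.993. Such values are common with 6 libraries, since 582 of 13738 genes ranked had an r above 0.9. Gas5, a long RNA that hosts snoRNAs in its introns, had 74.9, 87.5 and 55.6 RPKM in Scx-/- and 62.4, 29.1 and 61.4 RPKM in Scx+/+, with its lowest value in Scx+/+ replicate 2, as for the 3 long RNAs.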

How the data were processed

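The authors aligned reads of total RNA libraries to mm9 with TopHat 1.4.1, counted them over Ensembl exons with easyRNASeq, filtered genes, replaced low values and deposited RPKM. No count test was run. Reads were recovered from RPKM, the exon length in the Ensembl annotation of mm9 (GENCODE, 18695 of 18810 genes matched) and a depth solved per library, and were whole within 0.1 read for 98.5% to 98.6% of values under 1000 reads. They give depth, reads per gene and the floor, entered 1 alternative fit of limma, and cover counting error at most.

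limma 3.58.1 (R 4.3.3) was run on log2(RPKM + 0.1) without covariates, with a trend of the variance on intensity and with p-values adjusted by Benjamini-Hochberg over the 18810 genes. Fold changes on that scale understate those of low genes. The fit was tested on simulated data. Ratios were tested by exact permutation and lists by counts. Members and lists were chosen with earlier results of these data known. Named are all long and all called members, the 10 small members with the most reads, the study's listed members, the genes called in each list and otherwise its most abundant up to 2, and the 5 genes most like Meg3, Rian and Mirg. Other genes named were chosen after their values were seen. Of the genes this rule takes, 1 is not reported here. p-values measure the spread between these embryos. Python 3.11.15 with pandas 2.3.3 and scipy 1.17.1 did the rest.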

Additional observations from a re-analysis of the deposited data

How the results depend on the processing

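The alternatives were pseudocounts of 0.01 and 1 RPKM, a minimum mean of 1 RPKM, limma without a trend, and one-way analysis of variance on RPKM and on its log2. Also run were quantile normalization, library medians set to 0, the replicate block, sex as a covariate, and recovered reads plus 1, then scaled to depth. Each library was left out in turn as well. The replicate block called 9 members against 7, the added ones being Mir679 and SNORD113 ENSMUSG00000064679. Mir679 was also called, lower in Scx-/-, without Scx+/+ replicate 1. No pairing by replicate number was seen. Deviations from the group means of same-numbered libraries correlated at 0.092, -0.22 and -0.19, and not every library correlated best with its own number. With 3 libraries per group, whose deviations depend on each other, this check cannot exclude a pairing.

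The number of members called was 4 with the minimum mean, 1 by analysis of variance on RPKM and 4 on its log2, and 3 to 7 with a library left out. Genes called, 731 in all, came to 539 to 1549 with a library left out, and to 1549 without Scx+/+ replicate 2. Quantile normalization called 352 genes higher and 353 lower, and library medians set to 0 called 281 and 365, against 531 and 200, while both called the 7 members in their direction. They moved the median of all genes from 0.10 to 0.016 and -0.0045.

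Mir758, Mir134 and Mir432 were called in each of the 6 fits with a library left out, Gm17639, Mirg and Mir1193 in 2 and Mir539 in 1. The log2 fold change of Mirg was 0.64 to 1.25 in these fits, and it was not called by analysis of variance on RPKM (0.92) or its log2 (0.94). Analysis of variance on log2 gave 1 of all genes, and 0 members, an adjusted p below 0.05, and every other setting gave 0. Mir134 was the member called by analysis of variance on RPKM, and it was not called on recovered reads. Mir539 was not called with the minimum mean, without a trend, by either analysis of variance or on recovered reads. Mir1197 was called with a pseudocount of 0.01 RPKM (2.96) and without Scx+/+ replicate 3 (3.92). Adjusted p ranged from 0.281 to 1 for Mir758 over the alternatives and was 0.437 or more for the other named members.

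Signs turned for values near 0 or resting on 1 library. Leaving out a library moved the log2 fold change of Meg3 over -0.32 to 0.48 (-0.32 without Scx+/+ replicate 2), Rtl1 over -0.52 to 0.0011, Mir1906-1 over -0.37 to 0.50, AF357355 over -0.55 to 0.71, and ENSMUSG00000084691, ENSMUSG00000089509, ENSMUSG00000087885 and ENSMUSG00000065013 over -0.26 to 0.36, -0.49 to 2.62, -0.68 to 2.42 and -2.62 to 0.41. ENSMUSG00000084691 was at 5.25e-05 with a pseudocount of 1 RPKM and 0.080 by analysis of variance on RPKM, which gave 0.23 for ENSMUSG00000065013 and -0.31 for AF357355. AF357355 was -0.0049 with a pseudocount of 1 RPKM, -0.076 after quantile normalization and -0.061 with medians at 0. The cause was not tested.

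Small genes limit these results, since 39 of 55 members had under 50 reads in every library, and there a few reads decide a call.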
